A study of Mus musculus with 30 samples.

Results

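Complex I (NADH:ubiquinone oxidoreductase) is the entry point of the mitochondrial respiratory chain for electrons from NADH. Its N module oxidises NADH, its Q module passes the electrons along a chain of iron-sulphur clusters to ubiquinone, and its membrane arm pumps protons into the intermembrane space. The core of the membrane arm is encoded by mitochondrial DNA, whereas the core of the N and Q modules and all accessory subunits are encoded in the nucleus and imported. Muscle and heart rely heavily on this enzyme, and inherited defects of its subunits are a known cause of mitochondrial disease.

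The genes described here are the 36 of the 36103 genes of the count table whose symbol is Nduf followed by a, b, c, s or v and a number. The rule leaves out Ndufab1, which encodes the acyl carrier protein. By their known place in the enzyme, 10 of them belong to the N module, 6 to the Q module, 9 to the proximal and 10 to the distal part of the membrane arm. The core subunits, which carry or surround the redox centres, are described here by Ndufs1, Ndufs3, Ndufs7, Ndufs8, Ndufv1 and Ndufv2. Ndufa4, now held to be a subunit of complex IV, was counted among the 36 and is given apart where it matters. All 36 passed the filter on low counts in all 4 tissues.

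RNA-seq was performed on whole gastrocnemius (a fast hindlimb muscle), diaphragm, heart and liver of male Mtm1-/y mice, a knock-out of the X-linked gene for the phosphoinositide phosphatase myotubularin, and of their wild-type (WT) male littermates. All mice were 5 weeks old and on a pure 129Pas background. There were 4 libraries per genotype from gastrocnemius and from heart, 4 from WT and 3 from Mtm1-/y diaphragm, and 3 from WT and 4 from Mtm1-/y liver. The labels do not say which tissues came from the same animal, so p-values measure the spread between these libraries.

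Total counts ranged from 24873817 to 44289343 per library. For Mtm1 itself no Mtm1-/y library reached the lowest WT library of its tissue. Its log2 fold change was -2.07 in gastrocnemius (edgeR, adjusted p = 2.07e-05), -2.26 in diaphragm (0.0269), -2.58 in heart (2.64e-05) and -1.60 in liver, where it did not pass the test (0.365). The defining genes of each organ were present, with the liver gene Alb at 90620 to 125600 CPM in the liver (plain CPM, counts scaled to the library total), the cardiac Myh6 at 21870 to 29510 CPM in the heart and the fast skeletal Myh4 at 26420 to 55290 CPM in the gastrocnemius. In the diaphragm Alb ranged from 283.6 to 31880 CPM, and 1 WT heart library (WT 4) held 5363 CPM of the atrial gene Myl7 against 44.9 to 883.5 CPM in the other WT hearts. The main counts and medians of the complex I genes in heart and diaphragm are also given with such a library left out, and levels of the complex I genes are CPM scaled by TMM within a tissue unless another scale is named. Since whole organs were used, fewer cells of a type and less RNA per cell cannot be told apart.

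For 1 of the 36 the sequence has to be seen before the values. Ndufs5, a small subunit on the intermembrane-space face of the proximal arm, lies on the minus strand at chr4:123712710-123718202 (mm10), and its coding sequence has a nearly identical processed copy, the pseudogene BC002163, at chr16:42955631-42955949 on the plus strand. Bases 1 to 150 of the coding sequence and of the pseudogene are shown because reads of 50 bases have to tell them apart, and capitals mark the bases that differ.

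Ndufs5: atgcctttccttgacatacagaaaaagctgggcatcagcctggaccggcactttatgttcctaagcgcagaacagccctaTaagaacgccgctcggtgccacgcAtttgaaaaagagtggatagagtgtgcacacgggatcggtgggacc

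BC002163: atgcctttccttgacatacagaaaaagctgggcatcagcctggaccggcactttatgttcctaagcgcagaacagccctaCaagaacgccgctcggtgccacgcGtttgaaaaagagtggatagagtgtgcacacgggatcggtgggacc

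Over 318 aligned bases the sequences differ at 2 (T81C and A105G, with the base of Ndufs5 first, the position counted from 1 at the A of the start codon, and the base of BC002163 last). The longest identical run is 213 bases, and 195 of the 269 possible 50-base windows of the coding sequence (72.5%) occur unchanged in BC002163. Per library, 5 to 48 reads were counted on Ndufs5 and 252 to 1403 on BC002163, so that 94.3 to 99.2% of the reads of both were assigned to the pseudogene in the 30 libraries. The authors counted uniquely aligned reads, and reads from the windows shared by both loci cannot be told apart. Why most reads of both were assigned to the pseudogene was not tested, and the values of Ndufs5 below are uncertain. Ndufa12, an accessory subunit of the N module at chr10:94198720-94221443, shares 72.0% of its coding windows with the processed pseudogene Gm15920 at chr5:130188395-130188796, again with 2 differing bases (A135G and T414C) over 399 aligned bases. Here the reads were divided almost evenly, with 357 to 1772 counts on Ndufa12 and 316 to 1682 on Gm15920 (44.6 to 53% on the pseudogene). Among the others, the share of 50-base transcript windows found in another gene of the annotation was 39.7% for Ndufs3 and 37.0% for Ndufb4. These shares refer to the whole transcript and cannot be set beside the shares of coding windows given above. By the transcript measure Ndufs5 had 31.1% and Ndufa12 26.2%, both below Ndufs3 and Ndufb4.

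**Figure D1:**
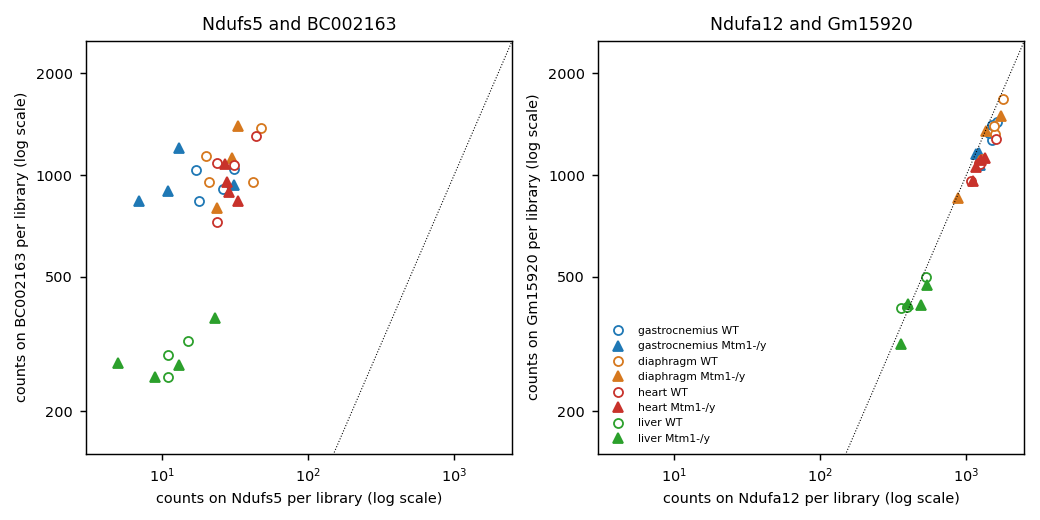
Counts per library on Ndufs5 and BC002163 (left) and on Ndufa12 and Gm15920 (right), both axes logarithmic, with 1 point for each of the 30 libraries and a dotted line of equal counts. All libraries lie far above the line for Ndufs5, with 5 to 48 counts against 252 to 1403, and close to it for Ndufa12.

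A second group of sequences concerns the start sites of the genes. NRF1, a transcription factor known to act on many respiratory-chain promoters, binds an element whose core letters GCGCATGC were searched on both strands from 250 bases before to 50 bases after the RefSeq start (GRCm38.p6), a window held for 32 of the 36 genes. The letters were found in a window of 3 of these 32 genes (9.4%) and in 2.71% of the 32851 windows of all genes. A gene can have several windows, so a share of genes and a share of windows are unlike measures, here and for the letters below. The 30 bases around the match are given for each gene as its strand reads, with the matched letters in capitals. For Ndufa11 the match on the strand of the gene is marked, and the overlapping match on the opposite strand begins 58 bases before the RefSeq start. The match begins 8 bases before the RefSeq start in Ndufa8, 83 in Ndufa6 and 60 in Ndufa11. By the GENCODE coordinates used for the genes, the stretch of Ndufa8 lies inside the gene (chr2:36036326-36049406). In Ndufa8 and Ndufa6 the letters stand on the opposite strand and so read GCATGCGC here, and in Ndufa11 they stand on both strands with an overlap.

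Ndufa8, chr2:36049328-36049357, minus strand: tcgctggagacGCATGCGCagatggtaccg

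Ndufa6, chr15:82354356-82354385, minus strand: tccgcggtagaGCATGCGCattgcagagcc

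Ndufa11, chr17:56717691-56717720, plus strand: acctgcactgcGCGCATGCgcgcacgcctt

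The GABP letters CCGGAAG were found in a window of 4 of the 32 genes (12.5%; Ndufb6, Ndufb7, Ndufs3 and Ndufs8) and in 8.86% of all windows. The ERR letters CAAGGTCA were found for 1 gene (3.1%; Ndufs5) and in 1.56% of all windows. These matches are descriptions of the letters and do not show that a factor was bound.

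The gastrocnemius was the only one of the 4 tissues in which complex I genes passed the test for a genotype effect. Of the 36, 20 fell in Mtm1-/y and 0 rose (edgeR quasi-likelihood test, adjusted p under 0.05), where 14.9% of all genes tested fell and 14.1% rose. DESeq2 gave 21 that fell and 0 that rose (13.9% and 13.0% of all genes), and at an unadjusted p under 0.05 edgeR gave 27 and 0 (20.7% and 20.9%). The log2 fold change was below 0 for 35 of the 36, with a median of -0.27 against 0.02 over all genes, and in 22 of them every Mtm1-/y library lay below every WT library (16.0% of all genes). The shifts were small, and 0 of the 36 passed the study's added limit of an absolute log2 fold change over 1 (1.79% of all genes did as lower and 4.84% as higher).

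Of the 6 core subunits described here, 4 fell. Ndufs1 (chr1:63143596-63176833), the large iron-sulphur subunit through which electrons leave the NADH-oxidising site, was counted at 597, 623, 683 and 629 CPM in WT 1 to 4 and at 389, 498, 403 and 425 CPM in the Mtm1-/y libraries. The highest Mtm1-/y library was thus below the lowest WT library, and the level fell by 32.3% (log2 fold change -0.56, SE 0.09, adjusted p = 0.00168). Ndufv1 (chr19:4007384-4012806), which binds FMN and NADH, had 518, 479, 521 and 551 CPM in WT and 401, 422, 372 and 382 CPM in Mtm1-/y (-0.39, SE 0.071, adjusted p = 0.00306). Its iron-sulphur partner Ndufv2 (chr17:66078638-66101559) had 292, 342, 335 and 315 CPM in WT and 198, 261, 231 and 230 CPM in Mtm1-/y (-0.48, SE 0.091, adjusted p = 0.00379). Neither of these flavin-side subunits showed any overlap between the genotypes. Ndufs8, which carries the iron-sulphur clusters between the N and Q modules, also fell (-0.36, SE 0.078, adjusted p = 0.00778).

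Ndufs3 and Ndufs7 did not pass the test. Ndufs3 had 63.3, 69.6, 67.8 and 83.0 CPM in WT and 65.1, 60.7, 53.4 and 58.7 CPM in Mtm1-/y, and the groups overlapped (-0.25, SE 0.094, adjusted p = 0.0699). Ndufs7, the subunit with the last cluster before ubiquinone, had 185, 166, 180 and 271 CPM in WT and 202, 171, 150 and 190 CPM in Mtm1-/y, where WT 4 stood above all other libraries (-0.17, SE 0.155, adjusted p = 0.433). Genes on the opposite strand overlap Ndufs1, Ndufs3 and Ndufv2. They also overlap genes of accessory subunits that fell (Ndufa3, Ndufa9, Ndufa11, Ndufb2, Ndufb11 and Ndufs6) and some that did not. The strand setting of the counting is not given in the sources used here.

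**Figure D2:**
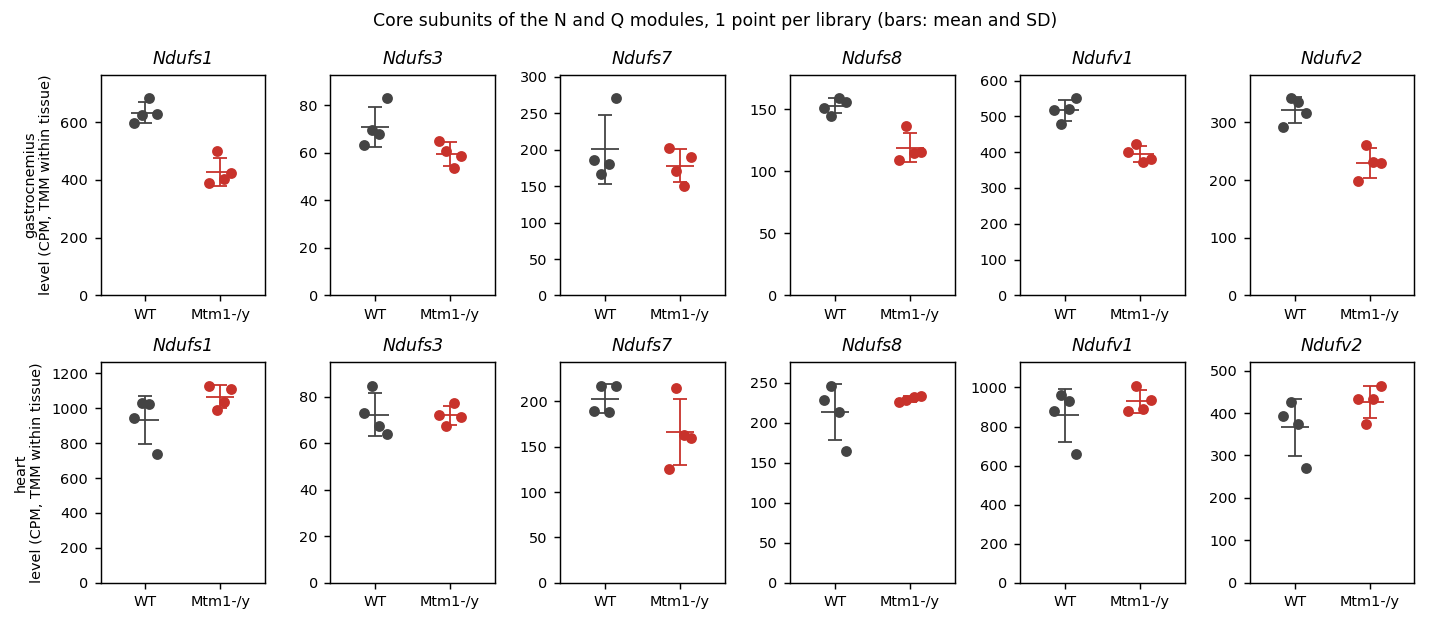
Level in CPM (scaled by TMM within each tissue) of 6 core subunits in the gastrocnemius (top) and the heart (bottom), 1 point per library, with mean and SD of 4 libraries per genotype. In the gastrocnemius the genotypes do not overlap for Ndufs1, Ndufs8, Ndufv1 and Ndufv2, and in the heart WT 4 is the lowest point for Ndufs1 at 737 CPM.

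Accessory subunits fell in every module. The smallest p of all 36 belonged to Ndufa8 (chr2:36036326-36049406), an accessory subunit on the intermembrane-space side of the proximal arm, at 228, 236, 229 and 237 CPM in WT and 162, 187, 177 and 176 CPM in Mtm1-/y. It fell by 0.40 on the log2 scale (SE 0.062, adjusted p = 0.00141), with little spread within either genotype. Ndufa12 had 41.7, 52.6, 48.5 and 47.3 CPM in WT and 29.4, 36.1, 32.5 and 33.5 CPM in Mtm1-/y (-0.53, SE 0.089, adjusted p = 0.00205). Its pseudogene Gm15920 fell alike (-0.50, SE 0.102, adjusted p = 0.00539), and the summed counts of both gave -0.52 (SE 0.091, adjusted p = 0.00264). Ndufb4 (chr16:37647170-37654453), of the distal arm, had 16.9, 19.0, 16.9 and 17.2 CPM in WT and 11.6, 13.6, 13.1 and 12.7 CPM in Mtm1-/y (-0.45, SE 0.077, adjusted p = 0.00218). Ndufa9, a nucleotide-binding accessory subunit of the Q module, fell by 24.7% (-0.41, SE 0.074, adjusted p = 0.00304).

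By module, 6 of 10 N-module genes fell (median log2 fold change -0.27), 3 of 6 of the Q module (-0.30), 6 of 9 of the proximal arm (-0.29) and 4 of 10 of the distal arm (-0.23). Ndufa4 fell too (-0.30, SE 0.08, adjusted p = 0.0193). The largest fitted value, -0.73 for Ndufs5, was uncertain (SE 0.449, adjusted p = 0.246), and with the counts of BC002163 added it was -0.20 (SE 0.085, adjusted p = 0.0967). At the other end stood Ndufb3 of the distal arm, the only gene above 0, at 71.6, 73.9, 78.4 and 68.2 CPM in WT and 76.8, 84.0, 61.0 and 75.6 CPM in Mtm1-/y (0.03, SE 0.096, adjusted p = 0.857). Ndufa2, an N-module subunit with a thioredoxin-like fold, stood at 0.00 (SE 0.073, adjusted p = 0.998). Of the genes with the NRF1 letters shown above, Ndufa8 and Ndufa11 fell, and Ndufa6 did not pass the test (-0.04, SE 0.115, adjusted p = 0.804).

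**Figure D3:**
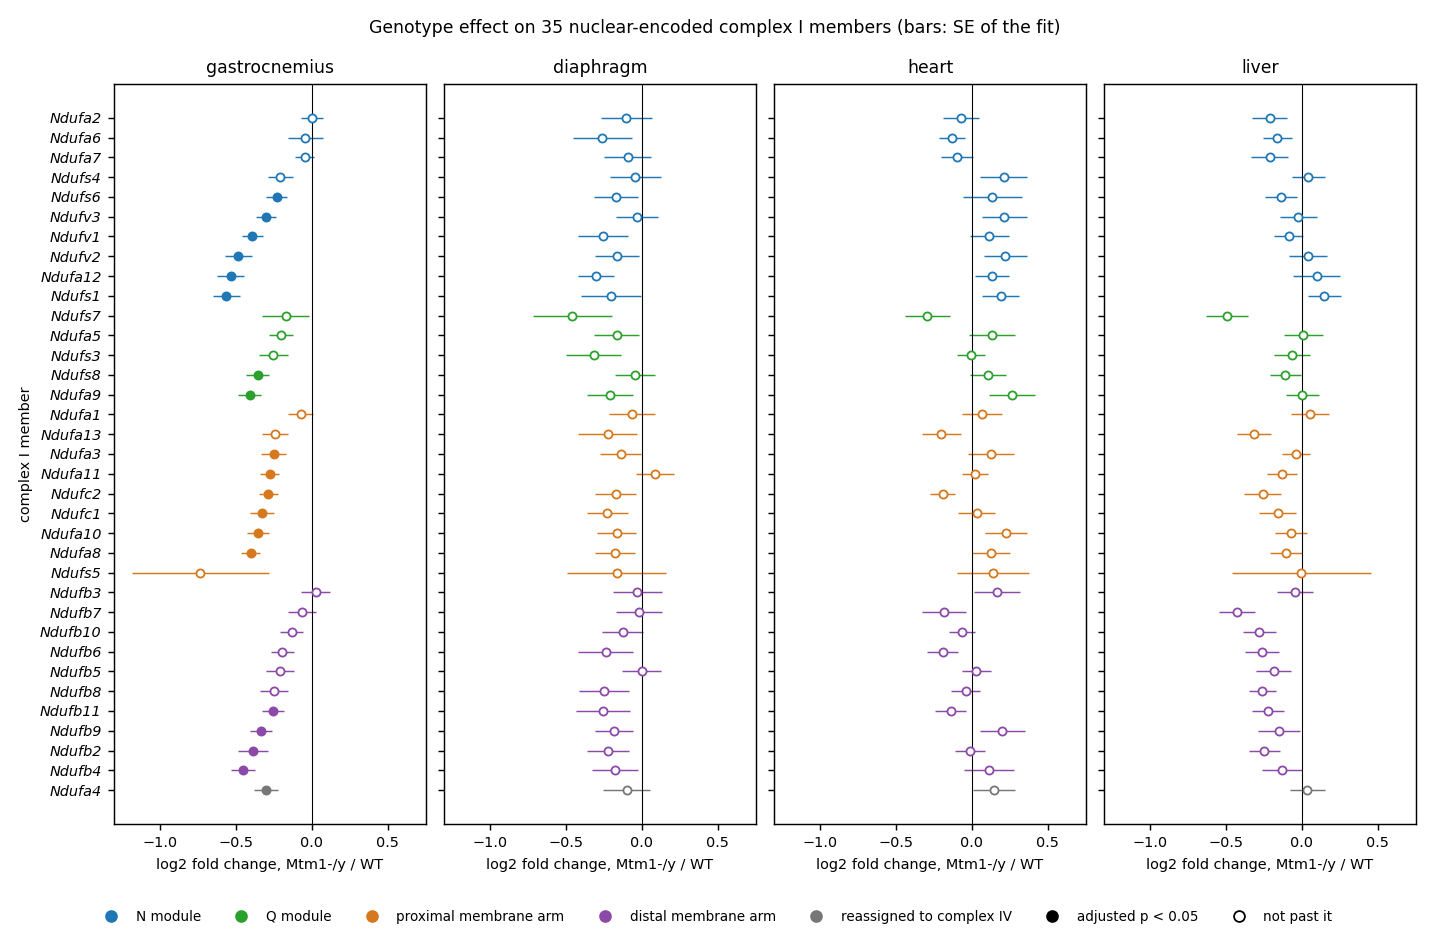
Log2 fold change of each of 35 of the genes, Mtm1-/y over WT, in the 4 tissues, with the SE of the edgeR fit as bars, colour for the module and filled points for an adjusted p under 0.05. The 19 filled points are all in the gastrocnemius and all lie left of 0, while the wide bar of Ndufs5 reflects its few counts.

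Summed over the 35 genes without Ndufa4, complex I transcripts made up 6632, 6858, 7059 and 7450 CPM in WT gastrocnemius and 5702, 6055, 5268 and 5591 CPM in Mtm1-/y. Relative to the summed nuclear-encoded subunits of complexes II to V the ratio was 0.366 ± 0.00598 (SD, n = 4) in WT and 0.373 ± 0.00575 (SD, n = 4) in Mtm1-/y, and the libraries overlapped. The subunits of complex I encoded by mitochondrial DNA summed to 35420 ± 4211 (SD, n = 4) against 23960 ± 1899 CPM (SD, n = 4), the latter in Mtm1-/y. All 5 that were tested fell (median -0.58), with mt-Nd4 at -0.55 (SE 0.107, adjusted p = 0.00454) and mt-Nd6 at -0.92 (SE 0.203, adjusted p = 0.0079). In the liver mt-Nd6 was at -0.95 (SE 0.33, not called), while mt-Nd1, mt-Nd2, mt-Nd4 and mt-Nd5 were above 0 there. In the heart mt-Nd6 was at 0.01 (SE 0.185). Of 20 assembly factors, which build the enzyme but do not stay in it, 11 fell and 0 rose (median -0.30), led by Ndufaf5 (-0.93, adjusted p = 0.000234), Ndufaf6 (-0.73, adjusted p = 0.000367) and Ecsit (-0.49, adjusted p = 0.00142).

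All 4 complex II genes fell, as did 5 of 9 nuclear genes of complex III (Uqcrc1 -0.53, adjusted p = 0.00105) and 9 of 15 of complex V (Atp5g1 -0.63). In complex IV 5 of 14 fell and 2 rose, Cox6a1 (0.51, adjusted p = 0.0258) and Cox8a (0.60, adjusted p = 0.0297), which encode the isoforms that predominate outside adult skeletal muscle and heart. All 13 genes of the TCA cycle, the source of most of the NADH that complex I oxidises, fell (median -0.46). The mitochondrial ribosome, which translates the mt-Nd genes, had 12 of 74 lower genes (median -0.12), a share near the 14.9% of all genes. Among 11 regulators 2 fell: Ppargc1a, the coactivator that drives mitochondrial biogenesis (-0.60, SE 0.126, adjusted p = 0.00643), and Ppara (-0.90, SE 0.132, adjusted p = 0.00114). Esrra (-0.28, adjusted p = 0.0571), Nrf1 (-0.02, adjusted p = 0.857) and Gabpa (-0.04, adjusted p = 0.784) did not pass.

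White adipocyte markers moved with genotype in this muscle. Of 12, 7 rose (median 1.22), among them Adipoq (1.495) and Retn (1.80), none was under 0.1 CPM in every library, and their summed level was 628.1 to 988.2 CPM in WT and 904.8 to 1459.7 CPM in Mtm1-/y. With their mean log2 level as a covariate 0 of the 36 were called and 11 were lower at an unadjusted p under 0.05, while the median log2 fold change stayed at -0.27 and 373 of all 15456 genes were called. Their part in the result was not tested further. Hepatocyte markers, which summed to 68.6 to 153.9 CPM in WT and 60.9 to 170.6 CPM in Mtm1-/y, had a median of -1.83 (3 of 17 fell and 2 rose), and all 5 blood markers tested were below 0 without being called. In the 8 fits that each left out 1 library, 16 to 22 of the 36 fell, and 16 of the 20 fell in each fit (Ndufa3, Ndufa4, Ndufb11 and Ndufs6 did not).

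In the diaphragm most of the genes also lay below 0, and 0 passed the test (edgeR). Only 0.0119% of all genes fell and 0.00% rose there, so the test called hardly any gene in this muscle. DESeq2 called 0 of the 36 as well (0.675% of all genes lower and 1.72% higher), and at an unadjusted p under 0.05 edgeR gave 1 lower (4.17% of all genes) and 0 higher (6.58%). The log2 fold change was below 0 for 35 of the 36, with a median of -0.17 against -0.01 over all genes. Ndufa12 was the gene that passed without adjustment and the 1 without overlap (4.57% of all genes), at 39.4, 42.0, 51.7 and 46.3 CPM in WT and 37.1, 37.7 and 34.4 CPM in Mtm1-/y 1, 2 and 4. Its log2 fold change was -0.30 (SE 0.117, adjusted p = 0.427), and -0.26 (adjusted p = 0.482) with the counts of Gm15920 added. Ndufs7 had the most negative value (-0.46, SE 0.26), at 276, 201, 266 and 308 CPM in WT and 198, 251 and 125 CPM in Mtm1-/y, with a spread that covers both genotypes. Ndufs3 was at -0.32 (SE 0.18), and Ndufa11, an accessory subunit at the root of the membrane arm, was the only gene above 0 (0.09).

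The diaphragm libraries differed in liver RNA. The summed hepatocyte markers were 50847, 32093, 805.8 and 40181 CPM in WT 1 to 4 and 4966, 61930 and 1253 CPM in Mtm1-/y 1, 2 and 4. WT 3, with the least, had the highest summed complex I level, 9576 CPM against 7320, 8026 and 8313 CPM in the other WT libraries. Among the Mtm1-/y libraries it was the one with the most, number 2, that had the highest sum, 8059 CPM against 7162 and 6897 CPM. Without WT 3 the median over all other libraries was -0.09 with 28 below 0, without Mtm1-/y 4 it was -0.10, with any 1 library left out it was between -0.25 and -0.09, and with the hepatocyte markers as a covariate it was -0.18 with 35 below 0. All 12 white adipocyte markers were below 0 as well (median -0.80, none called, with Lep at -1.51 and Plin4 at -0.55 lower at an unadjusted p under 0.05, edgeR), and summed to 1784 to 4755 CPM in WT and 1427 to 2160 CPM in Mtm1-/y. Of 6 blood markers, 5 were below 0 (median -0.41), Hba-a1 at -1.09 among them. The part of these markers in the result was not tested. None of the 18 hepatocyte markers was under 0.1 CPM in every diaphragm library.

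In the heart 0 of the 36 passed the test (edgeR), beside 0.00656% of all genes that fell and 0.00% that rose, and DESeq2 called 0 (0.359% and 0.102%). At an unadjusted p under 0.05 edgeR gave 1 lower (5.83% of all genes) and 0 higher (3.05%), and every one of the 36 overlapped between the genotypes (2.16% of all genes were lower and 2.10% higher without overlap). The log2 fold change was above 0 for 23 of the 36, with a median of 0.11 against 0.00 over all genes. Ndufc2, a proximal-arm subunit, passed without adjustment at 97.6, 99.0, 92.9 and 92.2 CPM in WT and 75.3, 95.2, 80.6 and 82.9 CPM in Mtm1-/y. Mtm1-/y 2 lay inside the WT range, and the log2 fold change was -0.19 (SE 0.082, adjusted p = 0.546). Ndufs1, by contrast with its fall in the gastrocnemius, had 942, 1030, 1026 and 737 CPM in WT and 1130, 992, 1034 and 1110 CPM in Mtm1-/y (0.19, SE 0.121), so that WT 1 and WT 4 were below all Mtm1-/y libraries. The other genes with the smallest p were Ndufs7 (-0.29, SE 0.149), Ndufb6 (-0.19), Ndufa9 (0.27, SE 0.152) and Ndufa10 (0.23, SE 0.137).

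The direction in the heart rested on WT 4. Its summed level of the 35 genes was 6993 CPM against 9268, 10139 and 8969 CPM in WT 1 to 3 and 9332, 9317, 9561 and 9712 CPM in Mtm1-/y 1 to 4. In the same library the mt-Nd genes summed to 52277 CPM against 77230 CPM or more in the other hearts, and Fabp3, a fatty acid carrier of cardiac muscle, was at 537 CPM against 808.7 to 982.9 CPM. The atrial genes, chosen after their values were seen, were high: Nppa was at 20620 CPM in WT 4, at 651.4 to 2404 CPM in the other WT hearts and at 144.3 to 3078 CPM in the Mtm1-/y hearts. Without WT 4 the median log2 fold change of the 36 was -0.04, with 21 below 0 and 2 lower at an unadjusted p under 0.05, and without WT 2 it was 0.18. White adipocyte markers summed to 1144 to 1579 CPM in WT and 1095 to 1159 CPM in Mtm1-/y hearts, but gene by gene 10 of 12 were below 0 (median -1.60). None was called by edgeR, DESeq2 called 6 as lower, and 8 were lower at an unadjusted p under 0.05, among them Adipoq (-2.48), Plin1 (-3.08) and Lep (-3.37). With their mean log2 level as a covariate the median of the 36 was -0.21 and all 36 were below 0, none of them called. Of 18 hepatocyte markers, 12 were above and 3 below 0 with an unadjusted p under 0.05, with none called by edgeR and 3 higher and 2 lower by DESeq2 (Alb 2.78, Apob 2.96, Hp -2.39), at sums of 36.6 to 297.2 CPM in WT and 79.5 to 201.2 CPM in Mtm1-/y. Blood markers summed to 480.1 to 2278 CPM in WT and 1532 to 4561 CPM in Mtm1-/y hearts, and the part of both lists was not tested.

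In the liver 0 of the 36 passed the test, as did 0.00% of all genes in either direction (edgeR), and DESeq2 called 0 of the 36 (0.109% of all genes lower and 0.0273% higher). At an unadjusted p under 0.05 edgeR gave 7 lower (2.54% of all genes) and 0 higher (1.69%), and DESeq2 gave 5 lower (2.37%). In 8 genes every Mtm1-/y library was below every WT library (3.47% of all genes). The median log2 fold change was -0.12 against 0.01 over all genes, and 27 of the 36 were below 0, while without WT 3 the median was -0.05. The lower values gathered in the distal membrane arm, where all 10 genes were below 0 (median -0.24), against medians of -0.05 in the N module, -0.03 in the Q module and -0.10 in the proximal arm, a difference between modules that was not tested. Ndufb7 (chr8:83566671-83571626), a distal subunit on the intermembrane-space side, had 81.7, 74.5 and 90.4 CPM in WT and 67.7, 64.8, 58.9 and 53.6 CPM in Mtm1-/y, without overlap (-0.42, SE 0.117, unadjusted p = 0.00591, adjusted p = 0.969, edgeR). Ndufs7 (chr10:80249121-80256794) had 64.2, 57.0 and 77.0 CPM in WT and 53.1, 49.2, 44.9 and 40.2 CPM in Mtm1-/y, again without overlap (-0.50, SE 0.138, unadjusted p = 0.00625, edgeR). Ndufb8 had 68.3, 62.7 and 71.9 CPM in WT and 56.8, 56.9, 56.3 and 55.9 CPM in Mtm1-/y (-0.26). The others under an unadjusted p of 0.05 were Ndufa13 (-0.32), Ndufb10 (-0.28), Ndufb2 (-0.25) and Ndufb6 (-0.26).

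**Figure D4:**
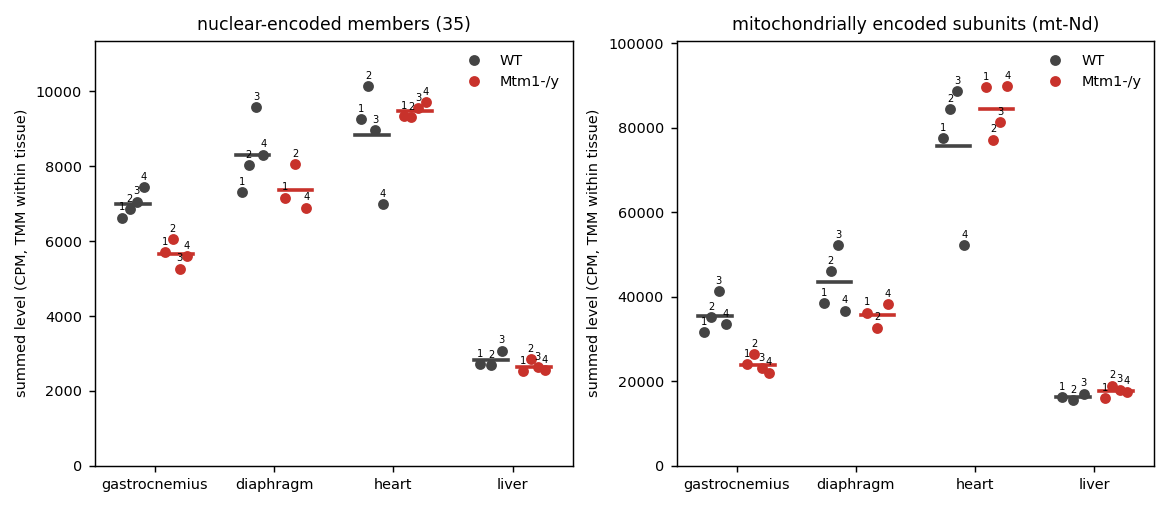
Summed level in CPM (scaled by TMM within each tissue) of the 35 nuclear-encoded genes (left) and of the mitochondrially encoded subunits (right) in each library, numbered by replicate, with the group mean as a bar. The genotypes separate in the gastrocnemius in both panels, and the heart library WT 4 lies below all other hearts at 6993 and 52277 CPM.

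The genotype effects of the tissues were then set against each other in fits of both tissues. Between heart and gastrocnemius the effect was more positive in the heart for 13 of the 36 and less so for 0 (edgeR, adjusted p under 0.05), where the same test called 9.94% of all genes in the first direction and 9.89% in the other. DESeq2 called 16 and 0 (12.5% and 8.78% of all genes). The median difference was 0.38 against -0.03 over all genes, and 31 of the 36 were above 0. The differences (log2) with the smallest p were 0.77 for Ndufs1 (SE 0.154, adjusted p = 0.00368), 0.68 for Ndufa12 (SE 0.15, adjusted p = 0.00624) and 0.72 for Ndufv2 (SE 0.177, adjusted p = 0.0117). The 13 covered 5 of 10 N-module, 3 of 6 Q-module, 3 of 9 proximal and 2 of 10 distal genes. Without the heart library WT 4, 12 were called and the median was 0.24, with Ndufs1 at 0.66 (adjusted p = 0.00274). The count was 8 without any 1 of the Mtm1-/y libraries 1 or 4 or the WT libraries 3 or 4 of the gastrocnemius or the Mtm1-/y libraries 1, 3 or 4 of the heart, and 7 without Mtm1-/y gastrocnemius 3 or without a filter on low counts. The mt-Nd genes differed in 5 of 5 (median 0.75), the TCA cycle in 12 of 13, and Ppargc1a by 0.71 (adjusted p = 0.033). Without the heart library WT 4 these were 4 of 5 (median 0.60), 13 of 13, and 0.64 for Ppargc1a, which was then not called (adjusted p = 0.065). Markers of other cells differed too, with 7 of 12 white adipocyte markers lower (median -3.05) and 12 of 18 hepatocyte markers higher and 3 lower (median 4.19), and their part was not tested.

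Between heart and diaphragm 0 of the 36 differed by edgeR (0.00573% of all genes were higher in the heart and 0.00% lower) and 0 by DESeq2 (0.236% and 1.00%), with 3 higher at an unadjusted p under 0.05 (3.87% of all genes). The difference was above 0 for 33 of the 36 (median 0.26, and 0.15 without the heart library WT 4), with Ndufa12 at 0.45 (SE 0.166, adjusted p = 0.37), Ndufa9 at 0.49 and Ndufa10 at 0.41. Between the skeletal muscles 0 differed by edgeR (0.114% of all genes were lower in the gastrocnemius and 0.166% higher) or by DESeq2 (1.25% and 0.891%), with 2 lower in the gastrocnemius at an unadjusted p under 0.05 (5.83% of all genes). These were Ndufa11 (-0.35, SE 0.122, adjusted p = 0.269) and Ndufs8 (-0.30, SE 0.138, adjusted p = 0.383), and the median difference was -0.11 (-0.03 without diaphragm Mtm1-/y 2, -0.05 without WT 1 and -0.18 without Mtm1-/y 4). Between gastrocnemius and heart the effect thus differed for 13 genes, and for none in either fit with the diaphragm (edgeR, adjusted p under 0.05). The fits with the diaphragm called hardly any gene, so the absence of calls does not show that the effects were alike.

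The levels of the genes in WT tissue were compared in a fit of the 15 WT libraries, on a common scale. Per kilobase of transcript, Ndufa4 was the most abundant in all 4 tissues (791 CPM per kb in the gastrocnemius), and the flavin-binding Ndufv1 had 343 CPM per kb there. The lowest were Ndufs5 (1.16 CPM per kb, with the limit given above), Ndufb2 (12.3, over an annotated transcript of 4371 bases) and Ndufb4 (19.8). The values spanned more than 10-fold by this measure, but this range cannot be read as that of the subunits of complex I. Ndufa4 is now held to belong to complex IV, Ndufs5 and Ndufb4 share windows with other genes, and the value of Ndufb2 rests on its annotated length. Ndufv3, which shares no window with another gene, had 85.4 CPM per kb in the gastrocnemius.

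**Figure D5:**
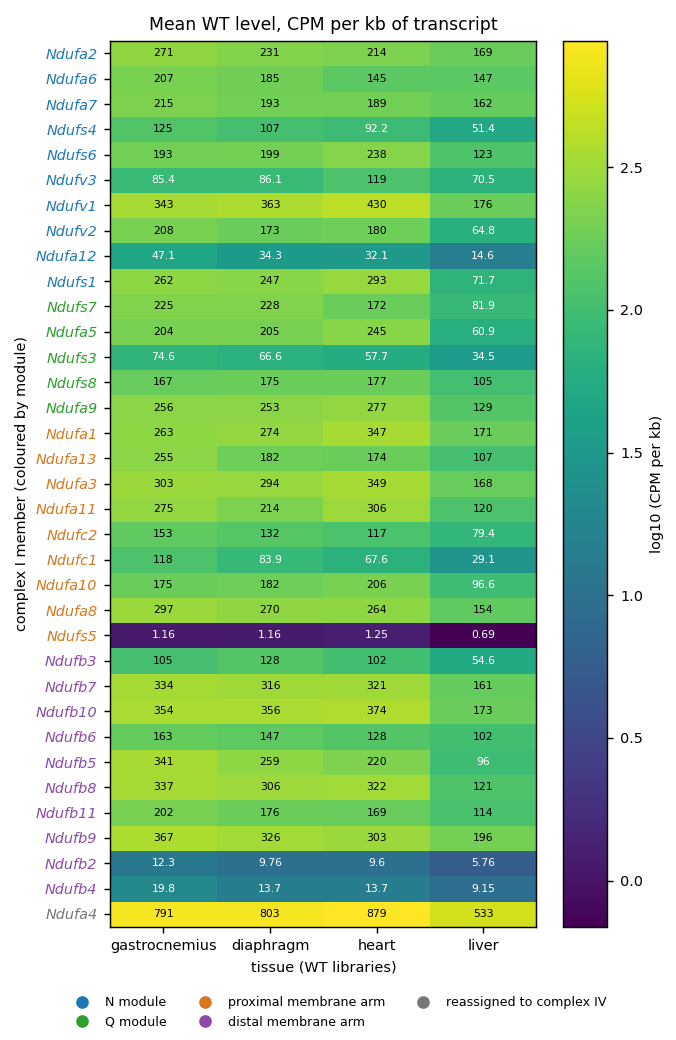
Mean WT level of 35 of the genes in the 4 tissues in CPM per kb of transcript, with the value in each cell, colour on a log10 scale and gene names coloured by module. In each row the liver value is below the gastrocnemius value, as for Ndufs1 at 71.7 against 262 CPM per kb.

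Liver held the least complex I transcript. Against the gastrocnemius 34 of the 36 were lower and 0 higher (edgeR, where 42.1% of all genes were lower and 37.4% higher), every WT liver library was below every WT gastrocnemius library in all 36 (41.8% of all genes), and the median log2 difference was -0.97 against -0.10 over all genes. Ndufc1 (-2.02) and Ndufs1 (-1.87) differed most. Ndufs1 had 697 ± 38.9 CPM (SD, n = 4) in gastrocnemius, 657 ± 135 (SD, n = 4) in diaphragm, 779 ± 116 (SD, n = 4) in heart and 191 ± 6.29 CPM (SD, n = 3) in liver, so that the differences among the 3 muscles were smaller than the SD of the diaphragm. Ndufv3, the N-module subunit with tissue-specific isoforms, was not called (-0.28, adjusted p = 0.0968), nor was Ndufs5 (adjusted p = 0.0512), which was called at -1.55 with the counts of BC002163 added (adjusted p = 9.21e-07).

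The heart did not hold uniformly more complex I transcript than skeletal muscle. Against the gastrocnemius 3 of the 36 were higher and 13 lower in WT heart (32.6% and 28.7% of all genes), with Ndufv3 (0.48) and Ndufa1 (0.40) highest and Ndufc1 (-0.80, adjusted p = 8.54e-05) and Ndufb5 (-0.63) lowest, while 4 of 5 mt-Nd genes were higher (median 0.68). Without the heart library WT 4 this became 8 higher and 10 lower, with 5 of 5 mt-Nd genes higher (median 0.84), and without WT 1 or 2 of either tissue 1 was higher. Against the diaphragm 2 were higher, Ndufa11 (0.52, adjusted p = 0.000724) and Ndufv3 (0.47), and 1 lower, Ndufa6 (-0.35), beside 22.1% and 29.6% of all genes, and without heart WT 4 there were 7 and 3. The lower count was 5 without diaphragm WT 1, 3 without diaphragm WT 3 or heart WT 1 or 2, 2 without diaphragm WT 2 or 4 and 0 without heart WT 3, and the higher count was 4 without diaphragm WT 3. In the diaphragm 0 were higher and 7 lower than in the gastrocnemius by edgeR (30.6% and 23.8% of all genes), among them Ndufb4 (-0.53) and Ndufc1 (-0.49), and without diaphragm WT 1 it was 1 and 3. DESeq2 gave 0 higher and 8 lower (24.2% and 21.0% of all genes), and edgeR at an unadjusted p under 0.05 gave 0 higher (33.2%). Per kilobase, Ndufv1 had 430 CPM per kb in the heart.

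The spread between libraries differed between tissues. Over the 35 genes other than Ndufs5, the median coefficient of variation of the level was 6.9% in WT and 7.62% in Mtm1-/y gastrocnemius, the muscle in which genes were called. It was 11% and 11.7% in the diaphragm, 9.7% and 8.86% in the liver, and 16.1% and 6.58% in the heart, where WT 4 widened the WT group. The absence of calls in the diaphragm, heart and liver does not show that the genes were unchanged there.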

How the data were processed

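Polyadenylated RNA had been sequenced by the authors as single reads of 50 bases (TruSeq Stranded). Per the labels and methods, trimming was by cutadapt 1.10, alignment to mm10 by STAR 2.5.3a, and counting of uniquely aligned reads by HTSeq 0.6.1p1 in union mode. The deposited values are raw counts per gene for 36103 genes in 30 libraries, and 0 columns were left unmapped. Groups came from the labels.

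Counts were analysed in R 4.3.3 with edgeR 4.0.16 (filterByExpr at a minimum count of 10, TMM, and the quasi-likelihood test with p-values adjusted by Benjamini-Hochberg over all genes tested). Genotypes were compared within each tissue, differences of genotype effects in fits of both tissues, and WT levels in a fit of the WT libraries. A gene rose or fell at an adjusted p under 0.05. DESeq2 1.42.0 and limma 3.58.1 (voom), other scalings and filters, marker covariates, the replicate number as a block and each library left out were alternatives. Adding pseudogene counts to Ndufs5 and Ndufa12 was chosen after seeing the data. The fits were tested on simulated data, with 100 genes changed by 0.4 and 100 by 1 on the log2 scale. The gastrocnemius fit called 11% of the former and 86% of the latter with the right sign. The fit of heart minus gastrocnemius called 1% and 66%. Of the unchanged genes, 0.0598% and 0.0373% were called in these fits. Changes of 0.4 were thus mostly missed in these simulations. All other genes were left unchanged there, of 15242 in the gastrocnemius fit, whereas 14.9% of all genes fell and 14.1% rose in the measured gastrocnemius. The adjusted threshold depends on how many genes change. These shares therefore cannot be read as the share of changed complex I genes that was missed.

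Named genes are, per comparison, the 6 with the smallest p (3 for differences of effects), the core subunits, the 2 largest differences each way between tissues, Ndufa4, and genes that depart in sign, and in other lists up to 3 with the smallest p. Of the 36 genes, 1 enters the counts, sums and medians and is otherwise not reported here. The genes and lists were chosen with earlier results of these data known. Coordinates are from GENCODE M21 (mm10) and promoter windows from RefSeq GRCm38.p6. Total counts of 24873817 to 44289343 per library set the precision, and fitted standard errors cover the spread between libraries.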

Additional observations from a re-analysis of the deposited data

Results flagged for a closer look

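The genotype effect differed between the heart and the gastrocnemius by the test of the difference itself in 13 of the 36 complex I genes (edgeR, adjusted p under 0.05), all more positive in the heart. The clearest were Ndufs1 (log2 difference 0.77), Ndufa12 (0.684) and Ndufv2 (0.719). The count was 7 without a filter on low counts and between 7 and 16 with any 1 library left out. It was 12 without the heart library WT 4, which held atrial transcripts.

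Of 90 groups of 4 libraries, 4 had a library whose gap to the nearest other library took up most of the range of the group, and chance gives about 1 in 20. These were Ndufb4 in WT gastrocnemius 2 at 18.951 CPM (gap over range 0.86), Ndufs3 in WT diaphragm 2 at 66.057 CPM (0.966), and Ndufa10 at 522.72 CPM (0.84) and Ndufa9 at 524.38 CPM (0.831) in Mtm1-/y heart 2.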

How the results depend on the processing

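In the gastrocnemius the count of complex I genes that fell was 0 under the study's added fold limit and 0 with the white adipocyte covariate, against 20. All other settings kept it between 14 and 22. The 13 genes with a more positive effect in the heart than in the gastrocnemius became 7 without a low-count filter, and 7 to 16 when 1 library was left out. With the replicate block they became 5, and the genes lower in WT heart than in diaphragm 2 in place of 1. Whether the replicate numbers pair the libraries is not known, and so few libraries cannot settle it. Correlations of deviations between libraries of the same number were -0.014 to 0.104 in the gastrocnemius and -0.695 to 0.505 in the diaphragm. They were -0.59 to 0.312 in the heart and -0.014 to 0.423 in the liver. For differences of effects the block was set within each tissue, so it does not address which tissues came from the same animal. With the block 18 fell in the gastrocnemius.

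WT counts changed with 1 library left out. Heart against gastrocnemius gave 1 to 8 higher and 9 to 14 lower, heart against diaphragm 2 to 7 higher and 0 to 5 lower, and diaphragm against gastrocnemius 0 to 1 higher and 3 to 7 lower. The last gave 1 higher with liver-enriched genes left out. In the heart the adipocyte covariate turned Ndufa9 to -0.183, Ndufa10 to -0.159 and Ndufs1 to -0.133, and the cause was not tested. Of the 20 genes that fell, 52 of 220 values under these settings and 20 of 160 with a library left out lost the call. None of these reversed. Few reads on Ndufs5 limit its precision.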

Other observations

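The summed level of the 35 complex I genes without Ndufa4, divided by that of the nuclear-encoded subunits of complexes II to V, was 0.3376 ± 0.002751 (SD, n = 3) in WT and 0.319 ± 0.01003 (SD, n = 4) in Mtm1-/y liver, with WT libraries from 0.3349 to 0.3404 and Mtm1-/y libraries from 0.3098 to 0.3329. In the heart it was 0.3175 ± 0.007846 (SD, n = 4) and 0.3049 ± 0.007939 (SD, n = 4), with an overlap. These ratios were not tested.

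Across the 35 genes other than Ndufs5, the log2 fold change in the gastrocnemius was lower for genes with longer transcripts (Spearman's rho -0.61, Pearson's r -0.52). The same measure over 13533 genes with a known length gave a rho of -0.08. In the heart, rho over the 35 genes was 0.41 (0.05 over all genes with a length), in the liver 0.29 (0.00) and in the diaphragm -0.26 (0.13). The points of a tissue share their libraries and are not independent, so these are descriptions.

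In the liver the log2 fold change was lower for genes of higher GC content (rho -0.47, r -0.52 over the same 35), and over all 12737 genes with a known GC content rho was -0.23. The values were -0.36 in the heart (-0.20 over all genes), -0.09 in the diaphragm (-0.05) and 0.18 in the gastrocnemius (0.09). Among the 36, GC content ranged from 41.96 to 60.43%. The 3 genes richest in GC, Ndufa13 (60.43%), Ndufb7 (59.71%) and Ndufs7 (59.61%), were at -0.315, -0.425 and -0.495, the most negative of the 36 in that tissue. In the heart they were at -0.2, -0.183 and -0.292 while 23 of the 36 were above 0, in the diaphragm at -0.225, -0.019 and -0.457, and in the gastrocnemius, where 20 of the 36 fell, none of these 3 passed the test (-0.244, -0.064 and -0.171).

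The letters AAGATGGC, the core of the YY1 element, were found in a promoter window of 7 of 32 genes (21.9%; Ndufa3, Ndufa9, Ndufb8, Ndufc1, Ndufs4, Ndufs6 and Ndufs7) and in 2.75% of all windows. They hold a start codon's ATG, and windows reach past the start of transcription. Of these genes Ndufa3, Ndufa9, Ndufc1 and Ndufs6 fell in the gastrocnemius.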
